A study of Mus musculus with 30 samples.

Results

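Fraction F3 is the third of 5 portions of small intestinal epithelium released one after another by EDTA, and its response to indolo[3,2-b]carbazole (ICZ) was measured by setting 3 ICZ libraries against 3 vehicle libraries, 6 of the 30 samples of the series. The members were chosen by their labels alone, as the F3 libraries of the mice named for vehicle or ICZ. All mice were 8 to 10 week old C57BL/6 females without an engineered allele in the labels, and all were kept for 1 week on AIN93G, a semi-purified diet free of dietary agonists of the aryl hydrocarbon receptor (AHR). The ICZ group was gavaged with 10 µg of ICZ in corn oil, the vehicle group received vehicle alone, and tissue was taken 12 h later. Each library is 1 mouse, and the same mice also gave the other fractions, with which F3 therefore shares animals but no library; F1 of ICZ replicate 3 was not analysed here, so F1 values of ICZ rest on 2 mice. Neither the length of intestine taken nor the part of the crypt-villus axis in F3 is given in the labels.

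AHR is a transcription factor of the cytosol that moves to the nucleus when it binds a ligand, pairs with its partner ARNT and activates genes through DNA elements with the core GCGTG. Its best known targets are the cytochromes P450 of family 1, which oxidize and clear the ligand itself, and a repressor, Ahrr, and an ADP-ribosyltransferase, Tiparp, that dampen the receptor. ICZ is an indole-derived AHR agonist that forms in the acid of the stomach from breakdown products of cruciferous vegetables. In the intestine AHR is known for its roles in the epithelium, in intraepithelial T cells and in innate lymphoid cells.

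The 6 F3 libraries held 5263880 to 7394612 reads assigned to genes, which were 57.0% to 60.0% of their counted reads, and 17801 to 19204 genes were detected in each. Levels are given as CPM, gene counts scaled by the gene reads of the library and its TMM factor. Epithelial genes dominated: the summed level of 24 absorptive enterocyte genes was 36200 to 54200 CPM in vehicle and 39500 to 53200 CPM in ICZ, and that of 10 B and plasma cell genes 35.5 to 385 and 20.7 to 277 CPM. Muc2, the main goblet cell mucin, was listed at 0 reads in all 6 libraries. The 14 listed goblet cell genes nevertheless summed to 9370 to 11100 CPM in vehicle and 8690 to 10800 CPM in ICZ. A crypt-villus score, the mean log2 CPM of proliferation and stem cell genes minus that of enterocyte genes, was -5.93, -5.23 and -5.12 in vehicle replicates 1, 2 and 3 and -5.62, -5.36 and -4.76 in ICZ replicates 1, 2 and 3, so the groups overlapped.

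Vehicle replicate 1 stood apart from the other 2 vehicle libraries of F3 in a set of genes. Among genes with a vehicle mean of at least 5 CPM, 92 were at least 2 times higher in vehicle replicate 1 than in both other vehicle libraries, and 43 tested genes were lower there by 2 times or more. In 73 of the 92, all ICZ libraries lay above vehicle replicates 2 and 3, as they did in 2124 of 9537 genes at 5 CPM or more in all; the 92 were chosen for low values in those 2 vehicle libraries. In other fractions this set was low in other libraries: ICZ replicate 3 had the lowest F2 level of the ICZ mice for 88 of the 92, and vehicle replicate 3 the lowest vehicle level for 75 in F4 and 82 in F5, against 3733, 3345 and 3759 of 9537 genes at 5 CPM or more in all. The alternative settings were followed for 87 genes. Where leaving out vehicle replicate 1 changed the call on one described below, its adjusted p without that library is given, or a group's range. Other followed genes also changed call and are not described below, among them Anpep, Cdx1 and Tmigd1. What set this library apart was not tested.

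**Figure D1:**
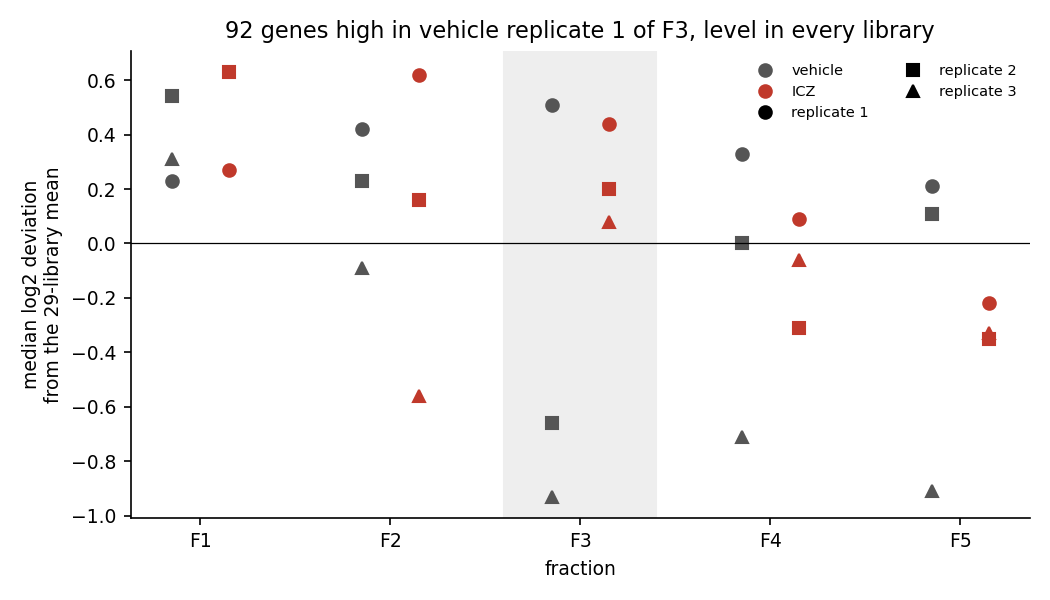
Median over 92 genes of log2(CPM + 1) minus the gene's mean over 29 libraries, by fraction, with grey for vehicle, red for ICZ and the symbol for the replicate. In F3 (shaded) vehicle replicate 1 was at 0.51 and replicates 2 and 3 at -0.66 and -0.93, while the ICZ libraries were at 0.44, 0.20 and 0.08; the genes were chosen by their vehicle values in F3.

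In F3 a single gene passed the test between ICZ and vehicle, and it was Acta1, which rose 7.3-fold in pooled reads. Acta1 encodes skeletal muscle alpha actin, a target of serum response factor (SRF). Its gene lies at chr8:123891769-123894751 on the minus strand (GRCm38). Its level was 7.77, 3.80 and 4.33 CPM in vehicle replicates 1, 2 and 3 and 50.5, 38.1 and 27.7 CPM in ICZ replicates 1, 2 and 3. The groups did not overlap, and the lowest ICZ library lay more than 3 times above the highest vehicle library. In edgeR's quasi-likelihood test the log2 fold change was 2.85 ± 0.30 (SE), with an adjusted p of 0.0257. Pooled over 3 mice, 755 ICZ reads stood against 111 vehicle reads, a depth-scaled ratio of 7.3 (95% interval 5.97 to 8.99, counting error only). That 1 gene was 0.00815% of the 12268 tested, and 0% were called lower. At an unadjusted p under 0.05 there were 1122 genes (9.15%), 663 higher (5.4%) and 459 lower (3.74%), and DESeq2 called 11 higher and 0 lower while limma voom called none in either direction. The call on Acta1 was lost in limma voom (adjusted p = 0.0602), in an edgeR fit of all 29 libraries (0.216) and in edgeR without vehicle replicate 2 (0.212), vehicle replicate 3 (0.344) or ICZ replicate 2 (0.173). Over all 16 settings, the main one included, its adjusted p ran from 1.12e-42 to 0.344.

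No other tested actin or SRF target gene passed the test. Actb, the main cytoplasmic actin, was at 9920, 8970 and 9270 CPM in vehicle and 8930, 9040 and 7980 CPM in ICZ (log2 fold change -0.14 ± 0.14 (SE)). Of 17 actin and SRF target genes 15 were tested, 8 with a positive and 7 with a negative log2 fold change, with a median of 0.01 against -0.004 over all tested genes. Actn1, an actin cross-linker, was 68.5, 79.6 and 68.4 CPM in vehicle against 87.6, 110 and 125 CPM in ICZ (0.55 ± 0.14, edgeR adjusted p = 0.344), and Flna, another cross-linker, 3.45, 4.06 and 4.65 against 1.76, 2.25 and 3.2 CPM (-0.75 ± 0.33, 0.528). Both gave groups that did not overlap. With Acta1 included, 2 of the 15 tested genes had all ICZ values above all vehicle values and 1 below. Over all tested genes these shares were 8.97% and 5.94%. Muscle markers were at or near 0: the desmin gene Des had 0 reads in all 6 libraries, the smooth muscle genes Myh11, Tagln and Acta2 had 0 vehicle reads and 8, 3 and 2 ICZ reads, and the skeletal muscle genes Ckm and Tnnt3 had 0 and 1 vehicle reads and 2 and 1 ICZ reads. Most of these few reads, 6 of Myh11 and all of Tagln and Acta2, came from ICZ replicate 3. These markers were chosen after their values were seen. The summed level of the list of stroma, muscle and endothelium genes overlapped between the groups and was highest in ICZ replicate 3. The part of muscle tissue in the rise of Acta1 was not tested.

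Promoters are shown for the 2 targets whose reads were almost confined to ICZ and for Acta1. The sequences are the 250 bases before the transcription start in RefSeq (GRCm38.p6), written 5′ to 3′ on the gene's strand. Capitals mark the AHR core GCGTG, searched on both strands, in Cyp1a1 at chr9:57697363-57697612 (plus strand), and the CArG box, the site bound by SRF, in Acta1 at chr8:123894776-123895025 (minus strand). Cyp1a2, at chr9:57683656-57683905 (minus strand), has no match to either.
Cyp1a1: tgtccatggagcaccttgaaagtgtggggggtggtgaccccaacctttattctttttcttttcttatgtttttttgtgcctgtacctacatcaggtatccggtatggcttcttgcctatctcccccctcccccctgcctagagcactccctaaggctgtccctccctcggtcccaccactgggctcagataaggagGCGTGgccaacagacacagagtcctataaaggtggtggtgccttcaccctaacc
Cyp1a2: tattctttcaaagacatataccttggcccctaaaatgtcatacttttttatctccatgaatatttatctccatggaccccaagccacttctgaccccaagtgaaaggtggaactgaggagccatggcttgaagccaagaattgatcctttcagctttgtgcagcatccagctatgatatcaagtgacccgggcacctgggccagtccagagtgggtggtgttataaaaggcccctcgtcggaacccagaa
Acta1: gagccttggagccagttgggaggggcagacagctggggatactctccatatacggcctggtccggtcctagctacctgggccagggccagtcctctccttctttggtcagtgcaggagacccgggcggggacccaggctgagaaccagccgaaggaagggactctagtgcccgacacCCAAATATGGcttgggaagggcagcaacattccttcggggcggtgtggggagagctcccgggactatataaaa
The Cyp1a1 match lies 54 bases before the start, and a CArG match, not capitalized, lies 32 bases before it. The Acta1 match lies 73 bases before the start. Over 32851 mouse promoter windows of this length, 28.2% hold GCGTG and 1.47% a CArG box, so a GCGTG match is common by itself. A match in these letters does not show binding.

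Cyp1a1 and Cyp1a2, the classical AHR targets, had reads almost only in ICZ mice. Cyp1a1, a cytochrome P450 that oxidizes AHR ligands (chr9:57687928-57703824), was at 0.144, 0 and 0 CPM in vehicle and 87.4, 33.4 and 15.9 CPM in ICZ replicates 1, 2 and 3. The ICZ libraries spread widely among themselves and none came near the vehicle level, which was 1 read in 1 mouse. Pooled, 893 ICZ reads stood against that 1 read, a depth-scaled ratio of 958 (171 to 37900, 95% interval of counting error). It was 488 without ICZ replicate 1 and 599 without vehicle replicate 2. The edgeR log2 fold change of 9.42 ± 1.53 (SE), which depends on the prior count for a gene this low in vehicle, did not pass (adjusted p = 0.344). Among other settings, it passed without ICZ replicate 1 (0.000567), in DESeq2 (5.77e-07) and with the crypt-villus score as a covariate (2.43e-09), with a range of 2.43e-09 to 0.786 over all settings. In an exact two-sided permutation test over mice, Cyp1a1, Cyp1a2, Nqo1 and Acta1 each gave p = 0.1, the smallest that 3 against 3 allows.

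Cyp1a2, the neighbouring family 1 enzyme on the opposite strand (chr9:57676937-57683703), had 0 reads in each vehicle library and 1.17, 4.13 and 3.73 CPM in ICZ replicates 1, 2 and 3. ICZ replicate 1, the highest for Cyp1a1, was the lowest for Cyp1a2. Its 58 pooled ICZ reads against 0 put the ratio at at least 20.7-fold higher, the vehicle mice together being set at the floor of 3 reads. The bound was 13.0-fold without vehicle replicate 2. Cyp1a2 was too low for the main test. It passed in edgeR without vehicle replicate 1 (adjusted p = 0.00488) and without ICZ replicate 1 (0.0433). Of the 6 settings that gave it an adjusted p, it passed in 3, with a range of 9.45e-09 to 0.644.

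**Figure D2:**
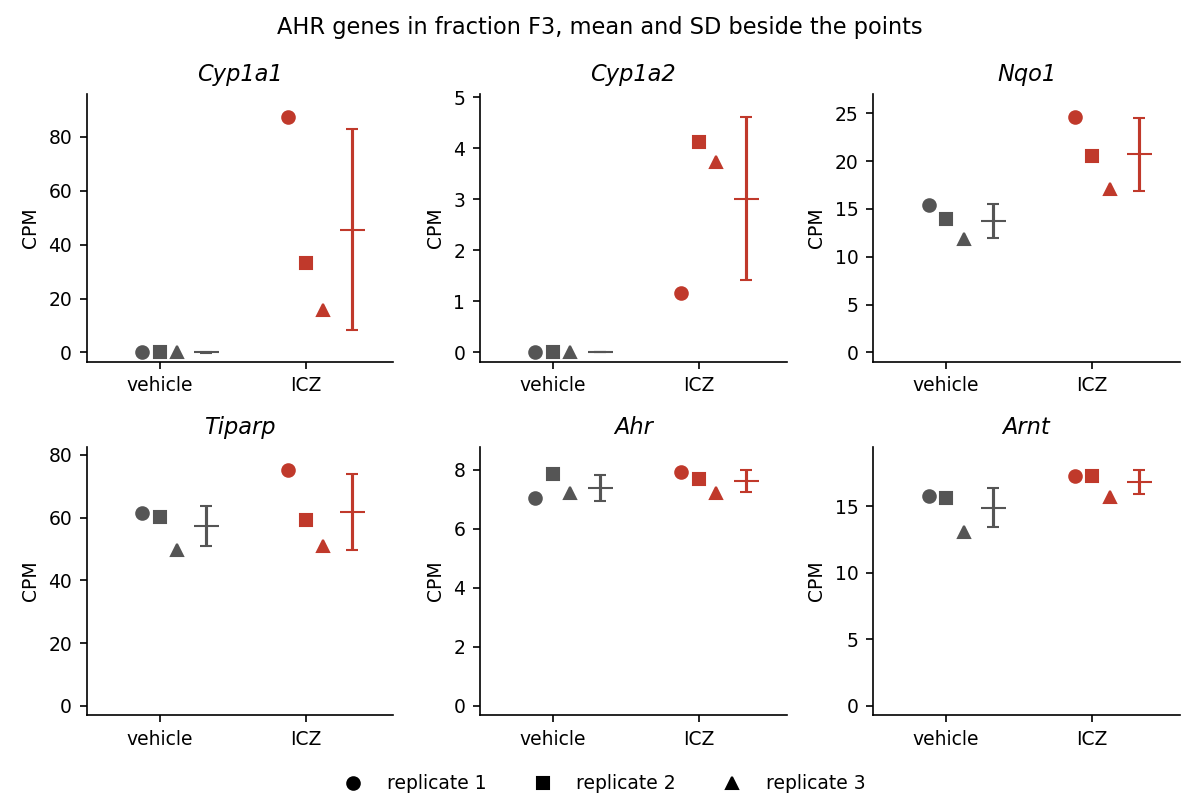
CPM of 6 AHR pathway genes in each F3 library, with the mean and SD of 3 mice beside the points. Cyp1a1 and Cyp1a2 are at or near 0 in all vehicle libraries, Nqo1 is higher in each ICZ library than in any vehicle library (17.1 against 15.4 CPM at the closest), and Tiparp, Ahr and Arnt overlap.

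The rest of the AHR battery showed small or no differences. Nqo1, a quinone reductase shared by AHR and NRF2, was at 15.4, 13.9 and 11.9 CPM in vehicle and 24.6, 20.5 and 17.1 CPM in ICZ. The groups did not overlap. Its log2 fold change was 0.57 ± 0.18 (SE; edgeR adjusted p = 0.424), and its pooled read ratio was 1.49 (1.28 to 1.74, counting error only). Tiparp, the feedback inhibitor, was at 61.6, 60.1 and 49.8 CPM in vehicle and 75.1, 59.3 and 51.0 CPM in ICZ, with overlapping groups (0.09 ± 0.15, 0.884); the sign was opposite without ICZ replicate 1 (-0.07). The receptor gene Ahr was at 7.05, 7.86 and 7.21 against 7.92, 7.70 and 7.20 CPM and its log2 fold change of 0.02 ± 0.21 turned to -0.01 without vehicle replicate 1 or without ICZ replicate 1. The partner gene Arnt was at 15.8, 15.6 and 13.1 against 17.3, 17.3 and 15.7 CPM (0.15 ± 0.16), and the groups overlapped narrowly. Ahrr, the repressor, had 15 vehicle and 7 ICZ reads, a ratio of 0.501 (0.173 to 1.3), so neither direction was detectable at this depth. Cyp1b1 had 1 vehicle and 0 ICZ reads. Aldh3a1 and Ugt1a6b were listed at 0 in all 6 libraries. Ugt1a6a, a glucuronosyltransferase, was at 3.59 ± 1.34 CPM in vehicle and 3.38 ± 0.41 in ICZ (SD, n = 3 each), but its exons are shared with other Ugt1a genes, so its reads cannot be assigned to it alone. Both Ahr and Tiparp also overlap an exon of a gene on the opposite strand. Of the 12 AHR genes 6 were tested, 0 of them passed, and 2 (Cyp1a1 and Nqo1) had all ICZ values above all vehicle values, against 8.97% of all tested genes.

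NRF2, a transcription factor for antioxidant genes, shares some targets with AHR. Of 13 tested NRF2 targets, 0 passed and the median log2 fold change was -0.08. The glutathione synthesis enzyme gene Gclc was at 26.9, 30.8 and 26.3 CPM in vehicle and 38.3, 39.8 and 35.8 in ICZ (0.42 ± 0.13, edgeR adjusted p = 0.424). Gsr, glutathione reductase, was at 26.2, 19.9 and 15.7 against 33.0, 31.9 and 26.7 CPM (0.54 ± 0.18, 0.428, and 0.0207 without vehicle replicate 1). The antioxidant genes Srxn1 and Prdx1 lay in the other direction, at 308, 235 and 232 against 217, 231 and 187 CPM and at 731, 667 and 806 against 618, 651 and 612 CPM. Groups did not overlap in any of the 4 genes, which were taken as the members of smallest p. Of the 13 tested, 2 had all ICZ values above all vehicle values and 2 below. Over all tested genes these shares were 8.97% and 5.94%.

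The genes of smallest p among those higher in all ICZ libraries than in any vehicle library, Acta1 aside, differed by less than 3-fold and missed the threshold. They were Hmgb2, a chromatin protein of dividing cells (log2 fold change 1.42 ± 0.24), Gar1, a component of box H/ACA small nucleolar ribonucleoproteins (1.17 ± 0.21), the P450 Cyp2j6, an epoxygenase (0.60 ± 0.11), Lsm8, which binds U6 small nuclear RNA (0.65 ± 0.12), Spint2, a membrane serine protease inhibitor (0.63 ± 0.13), Rcc2, a mitotic regulator (0.69 ± 0.14), Cps1, the mitochondrial carbamoyl phosphate synthase (0.53 ± 0.11), Aurkb, a mitotic kinase (1.19 ± 0.24), and Hsd17b13, a lipid droplet protein (0.56 ± 0.11), each with an edgeR adjusted p of 0.25. In vehicle Hmgb2 was at 4.61, 3.68 and 3.37 CPM and in ICZ at 10.6, 12.6 and 8.79 CPM, Gar1 at 14.3, 10.8 and 7.37 against 25.8, 22.5 and 25.9 CPM, Cyp2j6 at 121, 118 and 99.0 against 186, 175 and 158 CPM, and Cps1 at 214, 222 and 204 against 286, 308 and 343 CPM. All 9 passed in edgeR without vehicle replicate 1, with adjusted p from 0.000862 for Gar1 to 0.0236 for Aurkb. In that setting 3.34% of 12586 tested genes were called higher. All 9 also passed when no filter on low counts was applied. That setting called far more genes in all than the main test did, as the closing section gives. The 9 were chosen for small p in these same libraries, so these calls are no separate support. In DESeq2 with all 6 libraries Hmgb2 (0.0252), Gar1 (0.0102), Cyp2j6 (0.0227), Spint2 (0.0442) and Cps1 (0.0227) passed. Each of the 9 was called in 3 to 5 of 16 settings, with adjusted p up to 0.758.

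**Figure D3:**
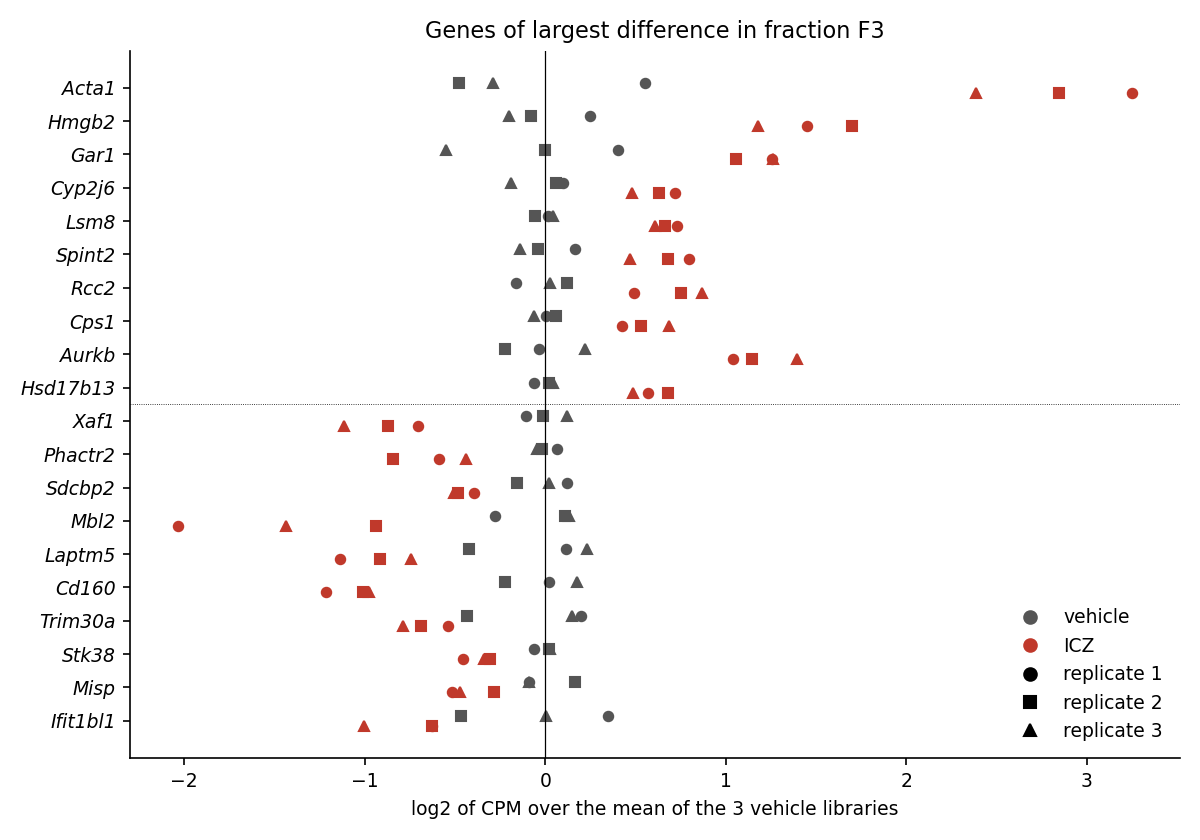
CPM of 20 genes in each F3 library, as log2 of the ratio to the mean of 3 vehicle libraries, with 10 genes higher in ICZ above the dotted line and 10 lower below it. Only Acta1 passed the test, at 2.85; the genes were taken by smallest p among those whose groups did not overlap, so the separation of the groups is a result of that choice.

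The named genes lower with ICZ were 10 that also missed the threshold. Mbl2, the gene of mannose-binding lectin, a soluble receptor for microbial sugars (chr19:30232942-30239687), was at 4.46, 5.83 and 5.93 CPM in vehicle and 1.32, 2.82 and 2.0 CPM in ICZ, with a log2 fold change of -1.44 ± 0.33 (SE; edgeR adjusted p = 0.256). Pooled, its 39 ICZ reads against 114 vehicle reads gave a ratio of 0.367 (0.248 to 0.532). Interferon-induced genes were among the others: Xaf1, an inhibitor of XIAP, at 11.8, 12.6 and 13.8 against 7.78, 6.95 and 5.86 CPM (-0.91 ± 0.20, 0.25), Trim30a, a TRIM protein (-0.69 ± 0.17, 0.344), and Ifit1bl1, of the IFIT family, at 63.5, 36.1 and 50 against 32.3, 32.3 and 24.9 CPM (-0.76 ± 0.19, 0.344). Leukocyte genes were Laptm5, a lysosomal membrane protein (-0.93 ± 0.22, 0.315), and Cd160, a receptor on intraepithelial T cells, at 6.91, 5.83 and 7.69 against 2.93, 3.38 and 3.46 CPM (-1.08 ± 0.26, 0.319); an exon of Cd160 overlaps Pdzk1 on the opposite strand. The cytoskeletal and adaptor genes Phactr2 (-0.63 ± 0.14, 0.25), Sdcbp2 (-0.48 ± 0.11, 0.256), Misp (-0.44 ± 0.11, 0.344) and the kinase gene Stk38 (-0.39 ± 0.10, 0.344) made up the rest. Without vehicle replicate 1, 6 of the 10 passed in edgeR: Mbl2 (adjusted p = 0.0221), Misp (0.0234), Xaf1 (0.0236), Stk38 (0.0299), Phactr2 (0.0382) and Sdcbp2 (0.0458). Without that library 0.62% of 12586 tested genes were called lower. Without the filter on low counts 8 passed, all but Cd160 and Stk38, in a setting that called far more genes in all than the main test. The 10 were likewise chosen for small p in these libraries, and each was called in 0 to 3 of 16 settings.

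Among gene lists, proliferation genes lay higher in ICZ and interferon, MHC class II and T cell genes lower, with 0 genes of any of these passing the test. Of 29 tested proliferation genes 26 had a positive log2 fold change (49.4% of all tested genes did), the median was 0.31 and 13 had all ICZ values above all vehicle values (8.97% of all genes). The median was 0.25 to 0.44 when a library was left out. Besides Hmgb2 and Aurkb, Ccna2, a cyclin of S and G2 phase, was at 25.0, 26.4 and 21.0 CPM against 38.0, 35.7 and 38.5 CPM (0.61 ± 0.14, edgeR adjusted p = 0.25), and Rrm2, the ribonucleotide reductase subunit, at 13.5, 17.1 and 15.1 against 20.7, 25.9 and 28.2 CPM (0.69 ± 0.17, 0.344). Ccna2 passed without vehicle replicate 1 (0.0247). The summed level of the 30 listed genes was 1330, 1630 and 1520 CPM in vehicle and 1550, 1710 and 1930 CPM in ICZ, with ICZ replicate 1 below vehicle replicate 2. The crypt-villus score of each library, which contains these genes, is given above, and its part in this result was not tested. The score rose along the fractions except from F4 to F5 in vehicle replicate 2 (-4.22 to -4.81) and ICZ replicate 1 (-5.02 to -5.51). Stem cell genes, such as Cdca7 (0.46 ± 0.19) and Smoc2 (0.36 ± 0.21), gave 12 positive values of 15 tested but no separated groups and a median of 0.10, which was -0.05 without vehicle replicate 1.

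Interferon response genes had a negative log2 fold change in 20 of 21 tested members (50.6% of all tested genes did), with a median of -0.49. Of these 21, 9 had all ICZ values below all vehicle values, against 5.94% of all genes. Gbp7, a guanylate-binding protein, was at 20.7, 22.2 and 28.5 CPM in vehicle and 14.5, 17.5 and 13.9 CPM in ICZ (-0.66 ± 0.18, edgeR adjusted p = 0.344, and 0.0285 without vehicle replicate 1). Irf7, the master regulator of type I interferon, was at 98.3, 68.3 and 84.0 against 60.2, 60.7 and 58.0 CPM (-0.51 ± 0.14, 0.344), and Ifit3, an interferon-induced antiviral protein, at 22.2, 14.5 and 22 against 11.9, 13.1 and 12.3 CPM. Vehicle replicate 2 was the closest to ICZ in Irf7 and Ifit3. The median was -0.58 to -0.37 when a library was left out.

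All 7 tested MHC class II genes, which display peptides to T helper cells, had a negative log2 fold change (50.6% of all tested genes did), with a median of -1.39. In 4 of them all ICZ values lay below all vehicle values, against 5.94% of all genes. The invariant chain Cd74 was at 270, 71.4 and 76.1 CPM in vehicle and 53.6, 57.1 and 48.0 CPM in ICZ, so vehicle replicate 1 was far above the other 5 libraries. Its log2 fold change was -1.42 ± 0.64 (edgeR adjusted p = 0.594) with that library and -0.50 (0.028) without it, and the median of the list -0.50 without it. Ciita, the master regulator of these genes, was at 24.6, 7.35 and 10.1 against 7.19, 6.57 and 4.40 CPM, and H2-DMb1, a peptide exchange factor, at 37.7, 11.0 and 11.5 against 6.60, 9.58 and 4.93 CPM. Class I genes were closer, with a median of -0.15: the regulator Nlrc5 was at 2.59, 3.42 and 2.08 against 1.03, 1.13 and 1.33 CPM (-1.23 ± 0.39, 0.424), and the peptide transporter Tap1 at 101, 87.4 and 85.6 against 65.0, 84.0 and 62.5 CPM (-0.40 ± 0.13, 0.425). Of the 14 tested class I genes 3 had a positive log2 fold change. These were Tap2, the partner of Tap1, at 26.5, 5.07 and 1.76 against 40.2, 41.1 and 21.7 CPM (edgeR adjusted p = 0.691), Psmb9, an immunoproteasome subunit, at 75.3, 33.6 and 34.9 against 71.3, 81.5 and 60.5 CPM (0.55 ± 0.34, 0.685), and Erap1, a peptide-trimming enzyme, at 63.9, 58.1 and 59.5 against 64.9, 74.0 and 71.3 CPM. Vehicle replicate 1 was the highest vehicle library in all 3, which are named because no other member was positive, after their values were seen, and were not followed across the alternative settings.

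Genes of intraepithelial T cells, lymphocytes that lie between the epithelial cells, had a negative log2 fold change in 14 of 16 tested members, with a median of -0.55, and 7 had all ICZ values below all vehicle values. Over all tested genes these shares were 50.6% and 5.94%. Since F3 is a bulk sample, fewer T cells and less RNA per T cell cannot be told apart. Nkg7, a cytotoxic granule protein, was at 13.8, 10.0 and 16.2 CPM against 6.02, 6.95 and 8.79 CPM, Ptprc, the CD45 gene, at 22.5, 29.3 and 29.7 against 12.9, 18.8 and 20.3 CPM (edgeR adjusted p = 0.0244 without vehicle replicate 1), and Cd3e, a T cell receptor subunit, at 11.8, 7.73 and 12.2 against 7.04, 6.76 and 7.20 CPM. The 2 exceptions were Gzmb, granzyme B, at 5.18, 2.54 and 3.53 against 7.04, 4.32 and 7.20 CPM, and the chemokine gene Xcl1, at 2.88, 1.01 and 0.801 against 2.49, 3.38 and 3.60 CPM. The summed level of the list was 395, 318 and 559 CPM in vehicle and 279, 267 and 318 CPM in ICZ, and the median was -0.33 without vehicle replicate 3. Myeloid genes, another source of class II transcripts, were negative in 4 of 5 tested members with a median of -0.52, which was -0.15 without vehicle replicate 3 and -0.82 without vehicle replicate 2. Their summed level was 28.9, 22.3 and 59.1 CPM in vehicle and 23.9, 27.8 and 27.5 CPM in ICZ, so the groups overlapped. The part of T cells and myeloid cells in the interferon and class II results was not tested.

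Among the other lists, clock genes had a median of 0.26: Nr1d2, a repressor of the clock, was at 24.2, 18.8 and 25.0 CPM against 32.4, 37.0 and 31.0 CPM (0.54 ± 0.15, edgeR adjusted p = 0.388), and Nr1d1, its paralogue, at 39.7, 42.7 and 38.5 against 51.6, 48.8 and 51.0 CPM (0.30 ± 0.12, 0.494). Absorptive enterocyte genes had a median of 0.05, which ran from -0.05 to 0.20 when a library was left out, the highest without vehicle replicate 1 and the lowest without vehicle replicate 3 or ICZ replicate 1. Heat shock genes were negative in 12 of 13 tested members with a median of -0.13, which ran from -0.23 without vehicle replicate 1 to 0.04 without vehicle replicate 3. In the apical transport list, Slc13a2, a citrate transporter, was at 95.2, 80.8 and 87.2 against 119, 165 and 125 CPM (0.61 ± 0.13, 0.25, and 0.00945 without vehicle replicate 1), Aqp8, a water channel, at 3.60, 4.18 and 3.05 against 9.83, 7.51 and 6.26 CPM (1.09 ± 0.27, 0.344), and Slc9a3, the sodium-proton exchanger NHE3, at 77.2, 70.4 and 59.6 against 48.6, 59.2 and 37.8 CPM (-0.54 ± 0.16, 0.416). None of these groups overlapped. Of 16 tested members of this list, 2 had all ICZ values above all vehicle values and 1 below, against 8.97% and 5.94% of all tested genes. Ddc, which makes dopamine and serotonin from their amino acid precursors, was at 346, 338 and 333 CPM against 272, 277 and 265 CPM (-0.34 ± 0.10, 0.388), with separate groups.

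**Figure D4:**
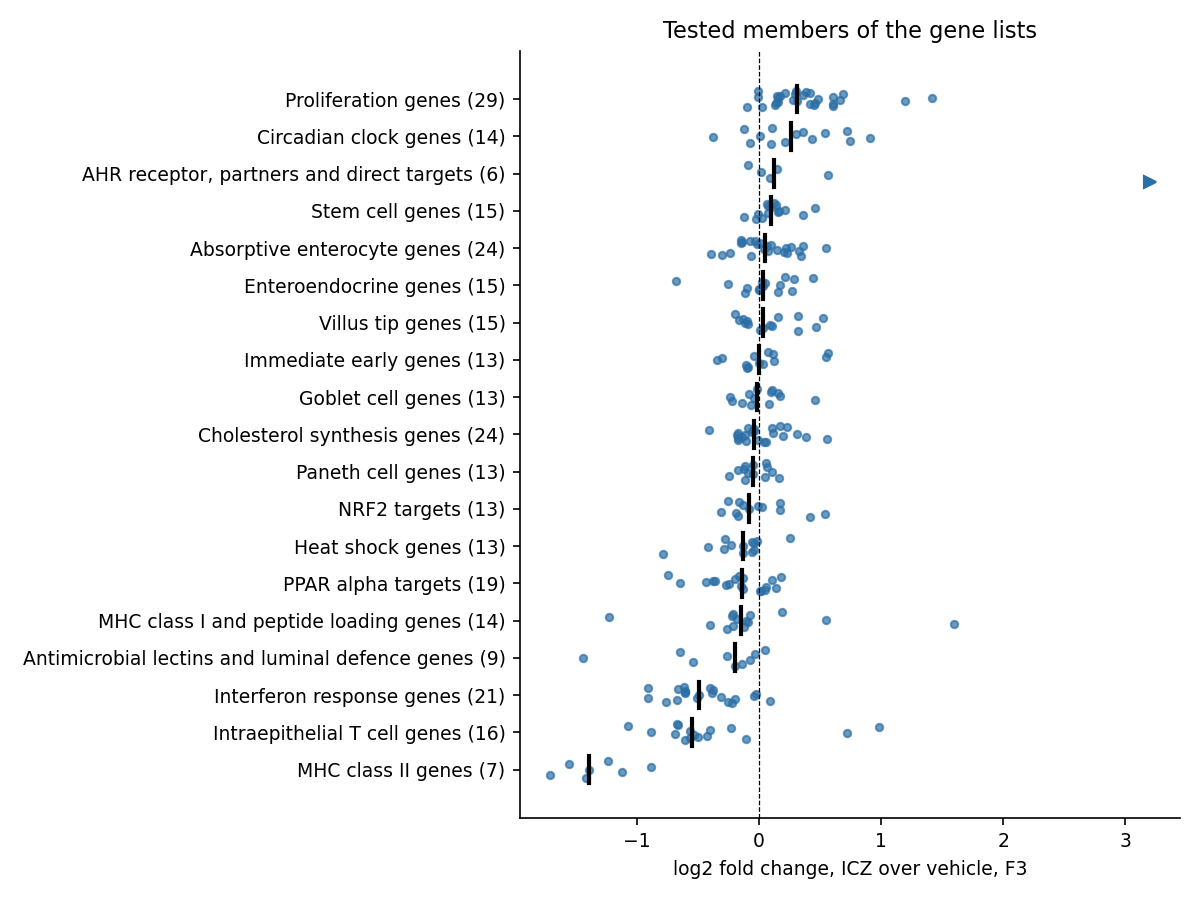
Log2 fold change of ICZ over vehicle in F3 for each tested member of 19 gene lists, ordered by median (bar), with the number tested in parentheses and a dashed line at the median of all tested genes (-0.004). Proliferation genes have a median of 0.31 and MHC class II genes of -1.39; the arrow marks Cyp1a1 at 9.42, beyond the axis.

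The count of called genes depended on vehicle replicate 1. Without that library edgeR called 498 genes, 420 higher (3.34% of 12586 tested) and 78 lower (0.62%), whereas leaving out any other single library gave 0 to 4. In 418 of the 420 that the full test had also covered, the median ratio of vehicle replicate 1 to the ICZ mean was 0.915. Over all 9537 tested genes at 5 CPM or more it was 0.981. The 418 were chosen by their call without that library, and the ratio depends on that choice. Bco1, the enzyme that cleaves beta-carotene to retinal, had an intermediate level in vehicle replicate 1. Its level was 29.9, 6.47 and 9.62 CPM in vehicle and 50, 41.3 and 39 CPM in ICZ, its log2 fold change 1.49 ± 0.59 (edgeR adjusted p = 0.55) with vehicle replicate 1 and 2.43 (8.2e-06) without it. Cox5a, a subunit of cytochrome oxidase, was at 10.4, 1.14 and 0.962 CPM in vehicle against 17.2, 18.2 and 13.1 CPM, Mrps28, a mitochondrial ribosomal protein, at 5.61, 1.52 and 0.962 against 16.7, 15 and 9.19 CPM, and Tomm40, the pore of the mitochondrial import channel, at 77.4, 55.9 and 40.1 against 114, 94.3 and 113 CPM. Cox5a, Mrps28 and Tomm40 were chosen after their values were seen, and an exon of Cox5a and of Tomm40 overlaps a gene on the opposite strand. Without vehicle replicate 1 all 3 passed in edgeR, with adjusted p of 8.2e-06, 0.000115 and 0.000453. Mrps28 and Tomm40 missed the threshold in the main test but also passed in some settings that kept this library. In DESeq2 their adjusted p was 0.00596 and 0.0378, and in unfiltered edgeR 3.27e-10 and 1.67e-07. Mrps28 passed as well with the crypt-villus score as a covariate (0.00017) or the replicate number as a block (0.0181). In Bco1, Cox5a, Mrps28 and Tomm40 vehicle replicate 1 was the highest vehicle library and still below each ICZ library.

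The F3 differences were set beside those of the other fractions. Acta1 was at 5.30 ± 2.16 CPM in vehicle and 38.8 ± 11.4 CPM in ICZ in F3 (SD, n = 3 each), 8.79 and 123 in F1, where ICZ had 2 libraries, 6.04 and 62.0 in F2, 6.31 and 27.9 in F4 and 9.78 and 26.6 in F5. Its log2 fold changes were 3.82, 3.33, 2.85, 2.14 and 1.48 from F1 to F5, with F3 in the middle, and the contrast of F3 with the mean of F2, F4 and F5 was 0.61 ± 0.52 (edgeR with the mouse as a block, adjusted p = 1.0). Mean Cyp1a1 in ICZ was 79.6 CPM in F1, 45.1 in F2, 45.6 in F3, 32.8 in F4 and 31.3 in F5, and that contrast was 0.18 ± 0.53 (adjusted p = 1.0). Mbl2 in vehicle was 10.9, 9.62, 5.41, 2.75 and 3.28 CPM from F1 to F5 and in ICZ 4.13, 2.15, 2.05, 0.844 and 0.734 CPM, the lower value in ICZ in each fraction.

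**Figure D5:**
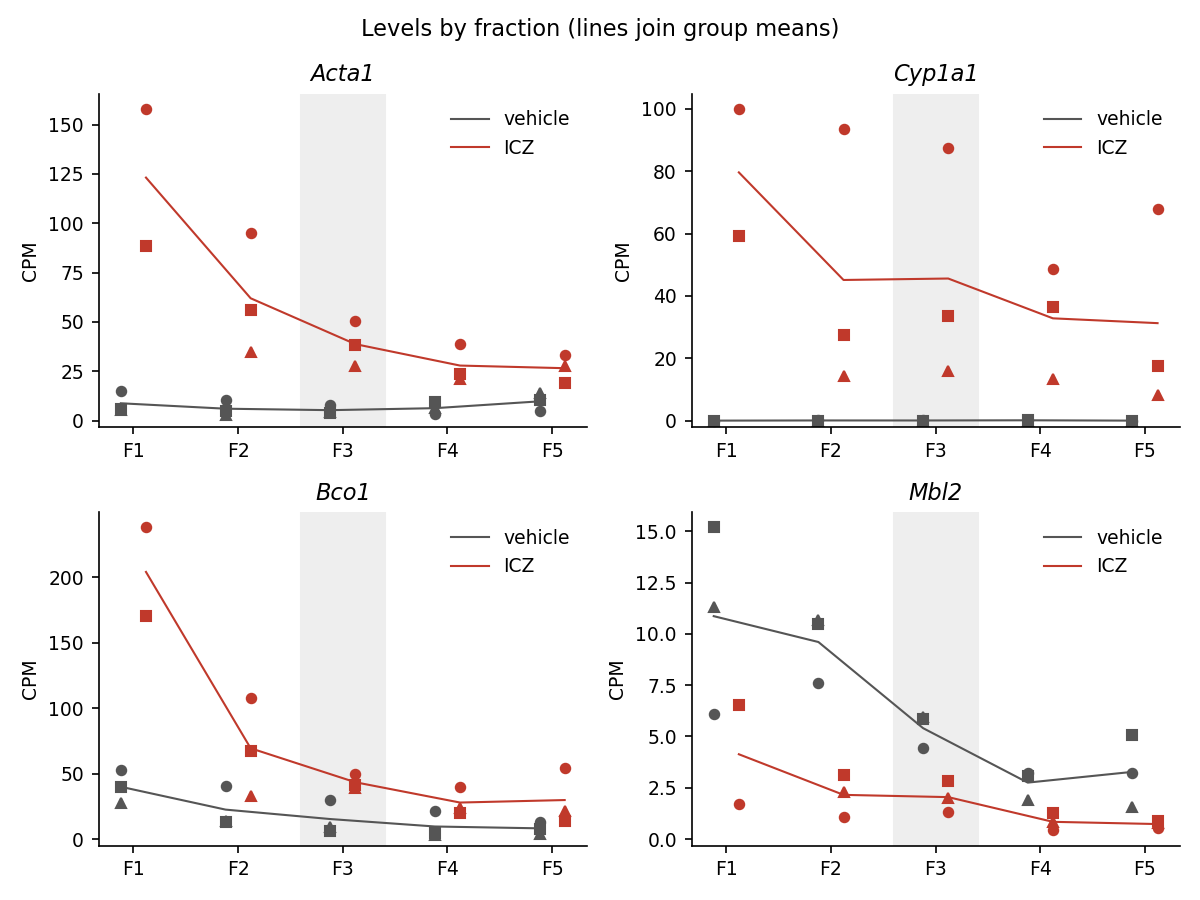
CPM of 4 genes in each library by fraction, with lines joining group means, F3 shaded, grey for vehicle and red for ICZ. Acta1 in ICZ goes from a mean of 123 CPM in F1 to 38.8 in F3 and 26.6 in F5, and Mbl2 is lower in ICZ in each fraction; Bco1 in F3 shows vehicle replicate 1 at 29.9 CPM above the other vehicle libraries.

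Across 14067 genes, 0 passed the contrast of the F3 effect with the mean effect of F2, F4 and F5 (0%), in edgeR and in limma voom, and 738 had an unadjusted p under 0.05 (5.25%). No F3 difference was thus shown to differ from the mean of those 3 fractions, and F1 was not in the contrast. The genes of smallest p were Hmgb2, whose contrast was 1.61 ± 0.35 (adjusted p = 0.539), and Gpkow, a splicing-associated protein, at 1.03 ± 0.23 (0.539); in F3 alone Gpkow passed without vehicle replicate 1 (0.0377). Hmgb2 was at 3.88 and 10.6 CPM in vehicle and ICZ in F3, but at 6.40 and 4.22 in F2, 8.53 and 7.40 in F4 and 8.44 and 10.2 in F5. In F3 its vehicle level was below that of the neighbouring fractions and its ICZ level above it. On the lower side Ghrl, the ghrelin gene, had a contrast of -0.49 ± 0.17 (0.852), with 71.1 and 60.5 CPM in F3 against 50.4 and 63.8 in F2. Without the vehicle replicate 1 mouse 39 genes passed, 36 of them with a more positive effect in F3. The median of the T cell list was -0.55 in F3, -1.36 in F2, 0.02 in F4 and 0.37 in F5, and that of the class II list -1.39, -1.14, -1.29 and -1.35. In F1, where ICZ had 2 libraries, these medians were 0.06 and -0.81. The fractions share mice, and the F3 median of the class II list was -0.50 without vehicle replicate 1.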

How the data were processed

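QuantSeq 3′ mRNA libraries were made from epithelial fractions of 3 vehicle and 3 ICZ mice, and the 6 libraries of F3 entered the main comparison. The authors deposited raw read counts per gene (54146 genes), not normalized; BWA 0.7.17-r1188, SAMtools 1.10, HTSeq 0.11.2 and FastQC 0.11.2 with build GRCm38.p6 (mm10) are named per the submitters' processing notes. No source used here gives the annotation release, the strand setting or any molecular identifiers, so reads of overlapping antisense genes cannot be told apart and intervals cover counting error only. Reads outside genes (gene reads were 57.0% to 60.0% in F3) were left out, as was 1 column of a sample without group. Of the IDs, 54079 matched GENCODE M21 without version, the source of the coordinates.

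ICZ was compared with vehicle in edgeR 4.0.16 (R 4.3.3): filterByExpr, TMM, robust quasi-likelihood F test, Benjamini-Hochberg at 0.05, no block. SE is the absolute log2 fold change over the root of F. The contrast of F3 with F2, F4 and F5 used 29 libraries with the mouse as a block. Alternatives used DESeq2 1.42.0, limma 3.58.1 and other filters, scalings and samples. The test was run on simulated data first. Libraries of a group differed by 5.74 to 19.1 chi-square per degree of freedom, so none was a duplicate.

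Named genes were the AHR list, then per direction the 10 largest changes past the threshold, filled up by smallest p among genes of at least 5 CPM in a group with groups that do not overlap and no predicted gene, then up to 4 examples per list of smallest p and 5 per direction in the contrast. The members, lists (39) and rules were chosen with earlier results of these data known. One gene of the AHR list is not reported here.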

Additional observations from a re-analysis of the deposited data

How the results depend on the processing

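The 1 gene called between ICZ and vehicle in F3 by edgeR became 11 in DESeq2, 0 in limma voom, 221 with no filter on low counts, 238 with the crypt-villus score as a covariate and 0 with all 29 libraries in one fit, and it stayed at 1 with RLE or upper quartile scaling and with a filter of 5 CPM. Leaving out one library gave 0 to 498 calls, the highest without vehicle replicate 1. The contrast of F3 with F2, F4 and F5 gave 0 calls, and 0 to 39 when one mouse was left out, with 39 only without vehicle replicate 1; it gave 0 without the mouse block. With the replicate number as a block 23 genes passed, 20 higher and 3 lower, Cyp1a1 among them (adjusted p = 2.19e-08). The numbers were not taken as pairing the mice, since the labels state no block. The deviations of same-numbered libraries from their group means correlated at 0.257, 0.0135 and 0.181. Those of differently numbered libraries ran from -0.242 to 0.103, the highest for vehicle replicate 2 with ICZ replicate 3. The edgeR coefficient of variation between mice was 0.152 without the block and 0.119 with it. Whether the numbers mark pairs was not tested. Of the 87 genes tracked, the direction turned when a library was left out for Tiparp (-0.07 without ICZ replicate 1, up to 0.22 without ICZ replicate 3), for Ahr (-0.01 without vehicle replicate 1 or ICZ replicate 1, up to 0.07 without vehicle replicate 2) and for Ugt1a6a (0.16 without vehicle replicate 3, down to -0.35 without vehicle replicate 1), and the cause was not tested in any of these. Acta1 lost its call in 5 of 15 alternatives. With 3 mice against 3, precision rests on the spread between mice more than on depth; genes under about 3 reads per group, such as Cyp1b1, cannot be compared.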
